A study of Mus musculus with 4 samples.

Results

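The genes described here are 44 interferon-stimulated genes, that is, genes known to be switched on when a cell responds to an interferon. Of these, 42 were listed among the 17630 genes of each expression table, and the remaining genes, Mx1 and Mx2, were not analysed here. The group was selected on FPKM values of these same libraries, after genes of this kind had been seen to be lower in the 6-OHDA library, so the members' counts and medians are given as a description and support no claim about the group. The study asked how sympathetic nerves act on mammary basal cells, the outer cell layer of the mammary duct in which mammary stem cells reside. RNA sequencing was carried out on 4 libraries of wild-type (WT) mouse mammary basal cells, 1 library per group.

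The sorted control group was freshly sorted basal cells with no treatment. The sorted 6-OHDA group was basal cells sorted from mice injected with 6-hydroxydopamine (6-OHDA), a toxin that damages sympathetic nerve endings outside the brain. The control colonies were grown from basal cells in 3D Matrigel, a basement membrane gel, without agonist. The SP colonies were grown in the same gel with salbutamol and phenylephrine (SP), which activate β2 and α1 adrenergic receptors, and the name of this library carried the number 200 without a unit. The basal gate took cells positive for CD24 and high for CD29 after staining for CD31, CD45 and TER119 to set aside endothelial, leukocyte and red blood cells. The sources used here do not tie a number, a strain or an age of mice to these libraries. With 1 library per group, no difference below has a replicate check.

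Interferons are secreted proteins that warn cells of infection. Binding to their receptors activates Janus kinases, and the factors they activate, STAT2 with IRF9 among them, bind the interferon-stimulated response element (ISRE) or the gamma-activated site (GAS) in promoters. The induced proteins detect foreign nucleic acid, block viral RNA and protein synthesis or attack the membrane around pathogens, and several of the sensors and signalling factors are themselves induced, so that the response feeds on itself.

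Values are FPKM, fragment numbers scaled for transcript length and for the size of the library. A change is the difference of log2(FPKM + 1) between 2 libraries, which understates the change of genes at low levels. A gene entered a comparison when its mean FPKM over both libraries was at least 1, and it is said to have risen or fallen when its change was past 0.3 on this scale.

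Some features set libraries apart before any interferon-stimulated gene is considered. In the 6-OHDA library, 10 of 11 named salivary gland secretory genes were listed and summed to 15754 FPKM, which was 3.04% of the library's FPKM sum. The same genes summed to 1.87 FPKM in sorted control cells, 1.36 in control colonies and 1.11 in SP colonies. Their most abundant gene was Bpifa2, at 7277 FPKM in the 6-OHDA library and listed at 0 in sorted control cells. Rescaling both sorted libraries to the same sum without these genes left the median change of the members at -1.12, against -1.14 as deposited.

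The basal keratins were high in all libraries, with Krt14 at 3595 FPKM in sorted control cells, 2633 in sorted 6-OHDA cells, 3298 in control colonies and 6920 in SP colonies. Despite the gate, all 8 endothelial markers were at 1 FPKM or more in both sorted libraries. They summed to 300.2 FPKM in sorted control cells and 303.6 in 6-OHDA cells, but to 1.95 in control colonies and 2.02 in SP colonies. Pecam1, which encodes CD31, was the most abundant of them, at 107 FPKM in sorted control cells, 93.0 in 6-OHDA cells, 1.39 in control colonies and 1.56 in SP colonies. In such bulk libraries, fewer cells of a type and less RNA per cell cannot be told apart.

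The members as a whole were most abundant in sorted control cells. Their summed level was 1808 FPKM in sorted control cells, 694 in sorted 6-OHDA cells, 291 in control colonies and 255 in SP colonies, or 0.356%, 0.134%, 0.0504% and 0.0434% of each library's FPKM sum. The median member was at 24.6 FPKM in sorted control cells, 11.0 in 6-OHDA cells, 3.56 in control colonies and 2.89 in SP colonies. Over all genes the median was 3.85 and 4.12 FPKM in the sorted libraries and higher, at 6.00 and 5.65, in control and SP colonies. These are values as deposited, and the shift between sorted cells and colonies depends on the scaling. In all, 33 of 42 members followed the order sorted control, then 6-OHDA, then both colony libraries. The exceptions were Ddx58, Oas3, Parp9, Dtx3l, Eif2ak2, Samd9l, Xaf1, Ifi35 and Lgals3bp, of which Ddx58, Parp9 and Xaf1 had their highest value in control colonies. The share of all genes in this order was not counted, so nothing is read from the number of members in it.

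**Figure D1:**
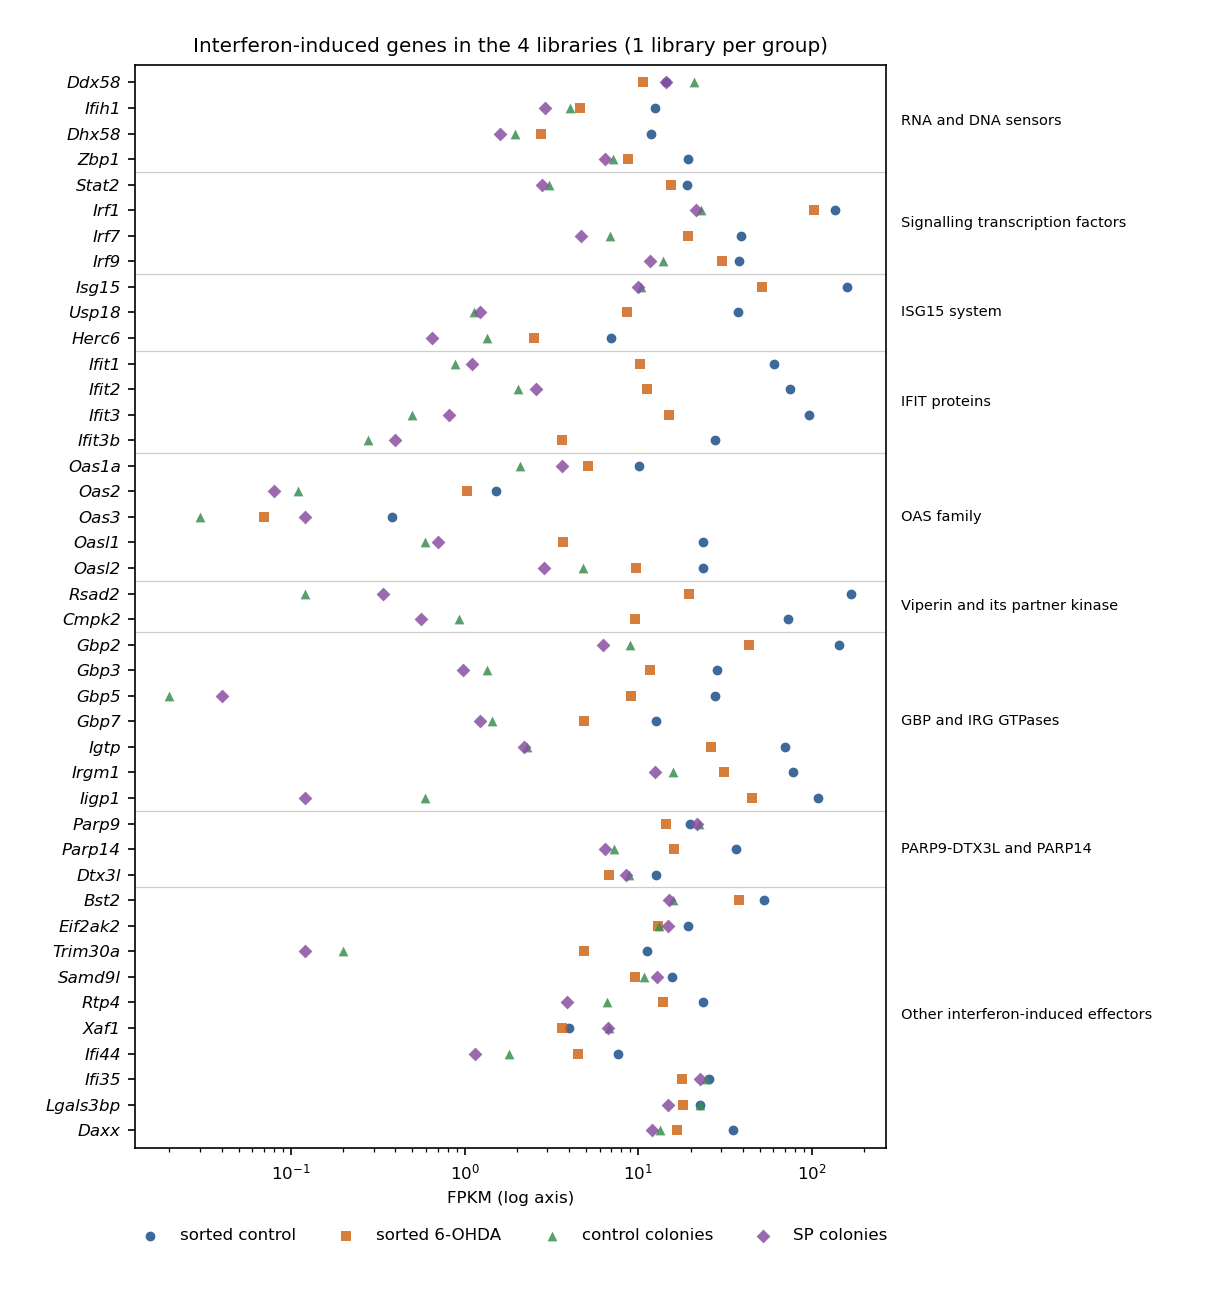
FPKM of the 42 listed interferon-stimulated genes in each of the 4 libraries, on a log axis, with genes ordered by role and 1 point per library. For most genes the sorted control point lies farthest to the right, the 6-OHDA point to its left and both colony points farther left, as for Rsad2 at 169, 19.5, 0.12 and 0.34 FPKM.

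In sorted cells, 39 of the 41 members that passed the filter fell after 6-OHDA and none rose, while 8.35% of the 11749 genes compared fell and 15.8% rose. The median change was -1.14 for the members and 0.06 for all genes. Past 1 on the log2 scale, 24 members fell and none rose, against 0.902% and 1.05% of all genes. With scaling by the median ratio the split of all genes was 11.5% lower and 11.7% higher. Since the members were chosen with values of these libraries known, nothing is read from these counts. All 42 listed members had a lower value in the 6-OHDA library, and this direction held under each scaling and pseudocount tried. Only Stat2 and Xaf1, among those that passed the filter, stayed within 0.3, and Stat2 passed it under several scalings.

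The depth of the fall differed widely among members. In plain FPKM, 10 members were at least 4-fold lower, 15 were between 2-fold and 4-fold lower and 17 were less than 2-fold lower. The shares of all genes in these classes were not counted, so the numbers only describe the members. The first class held Dhx58, Usp18, Ifit1, Ifit2, Ifit3, Ifit3b, Oas3, Oasl1, Rsad2 and Cmpk2, of which Oas3 was under the filter and went from 0.38 to 0.07 FPKM. Of the 10 largest falls among all genes compared, 6 were of members, as were 23 of the 100 largest, while 41 of the 11749 genes compared were members. From sorted cells to colonies the members among the 10 and the 100 largest falls numbered 1 and 9, and with SP both were 0. Since the members were chosen with values of these libraries known, nothing is read from these numbers. The ranking of the members by level was largely kept, since the log2 levels of the 42 members in both sorted libraries correlated at 0.85 (Pearson) and 0.80 (Spearman). This describes genes, which are not independent replicates.

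Markers of other cells were compared in the same libraries. Of 20 leukocyte markers, 6 passed the filter and 1 fell, and the list summed to 18.6 FPKM in sorted control cells and 16.9 in 6-OHDA cells, with Cd68 most abundant at 6.05 and 5.39. Ptprc, which encodes CD45, was at 0.77 and 0.47 FPKM, and Cd3e was at 0.14 and listed at 0. Of 8 endothelial markers, 2 rose and none fell. Of 8 fibroblast markers, 5 rose, among them Col3a1 from 18.3 to 91.7 FPKM, and the sum of the list went from 352 to 532 FPKM. Pdpn was the most abundant of the list in both, at 168 and 153 FPKM, and did not rise. Of 10 basal markers, Krt14 and Krt17 fell and Acta2 rose, and of 9 luminal markers that passed the filter, Krt18 and Prlr fell. The part of these lists in the fall of the members was not tested.

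**Figure D2:**
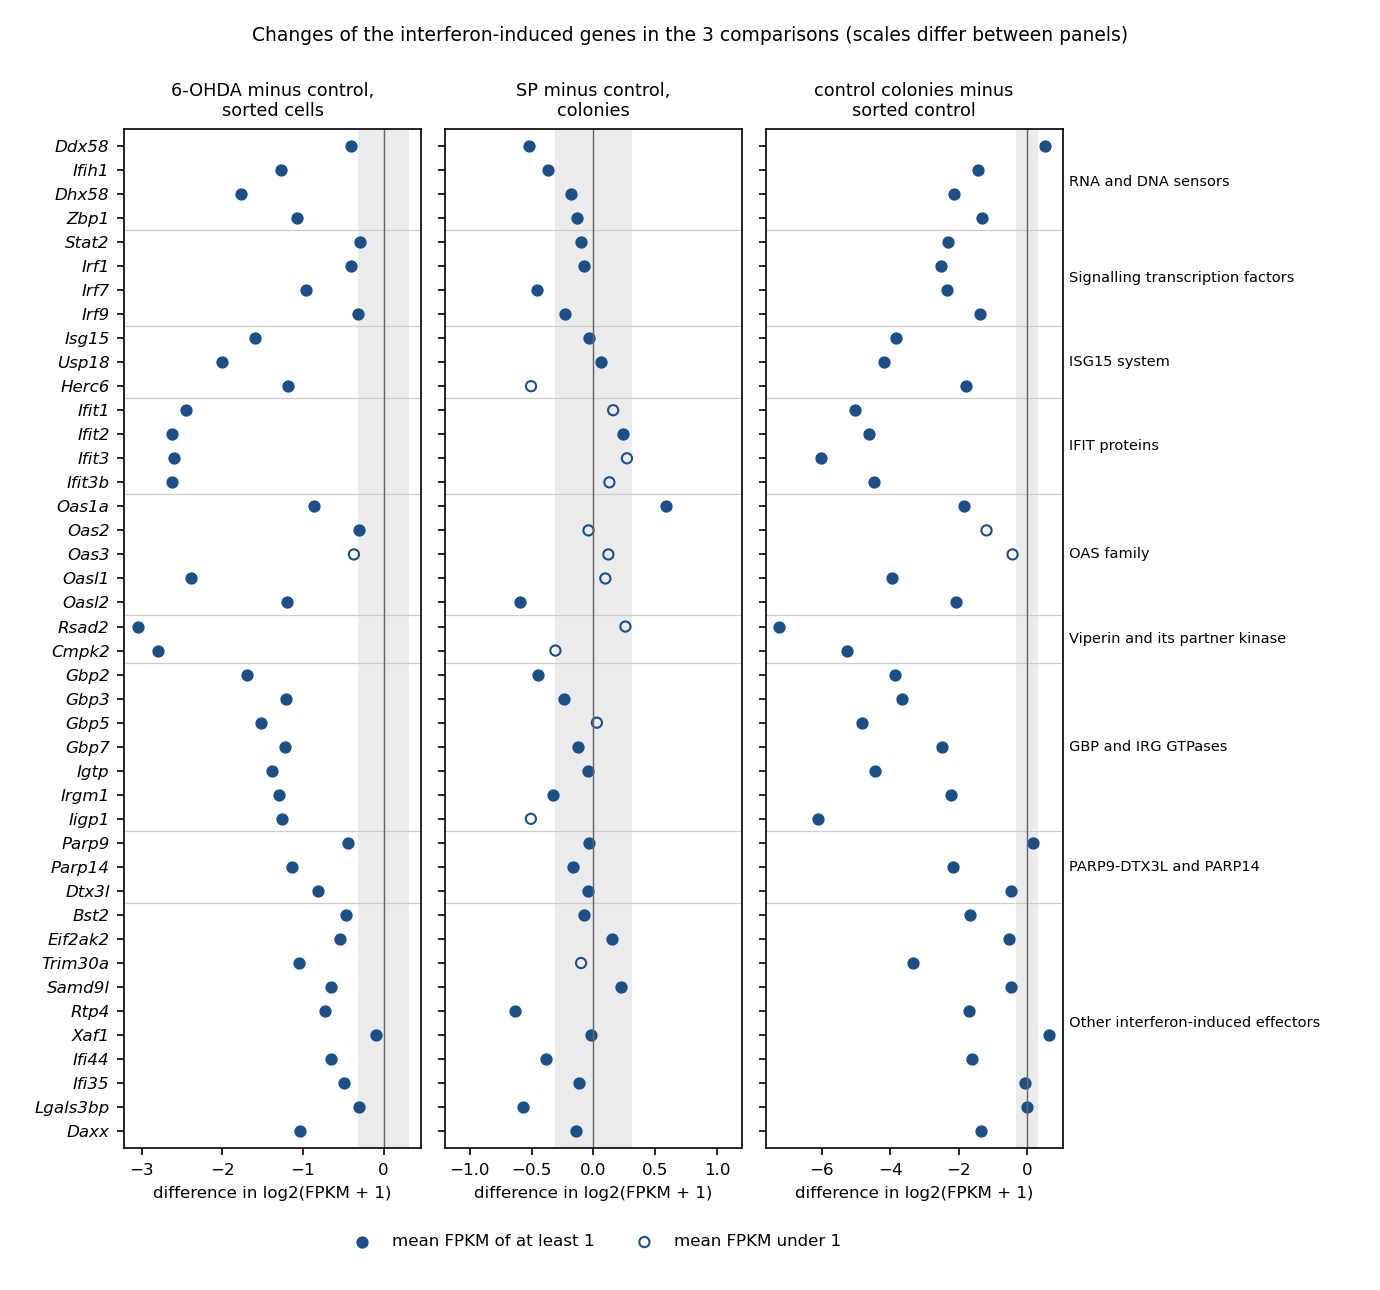
Difference in log2(FPKM + 1) of each listed member in the 3 comparisons, with the range within 0.3 shaded and members under the filter as open circles. In sorted cells every point lies left of 0 and Rsad2 lies farthest left at -3.05, in colonies most points lie within the shaded range, and from sorted cells to colonies Rsad2 reaches -7.25 while Ddx58 and Xaf1 lie to the right, a position past 0.3 that scaling by the median ratio or quantiles removes.

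In colonies, 9 of the 30 members that passed the filter fell with SP and 1 rose. Over the 11849 genes compared, 19.8% fell and 11.7% rose, and with scaling by the median ratio 14.8% fell and 14.8% rose. The median change was -0.13 for the members and -0.07 for all genes. No member changed by more than 1, while 1.33% of all genes fell and 2% rose past it. The 9 were Ddx58, Ifih1, Irf7, Oasl2, Gbp2, Irgm1, Rtp4, Ifi44 and Lgals3bp, and the gene that rose was Oas1a. The fall of Irgm1 was lost with scaling by the median ratio and by quantiles, and that of Ifi44 with quantiles. With a pseudocount of 5, the falls of Ifih1, Irf7, Irgm1 and Ifi44 and the rise of Oas1a were all lost. The other 12 members, Herc6, Ifit1, Ifit3, Ifit3b, Oas2, Oas3, Oasl1, Rsad2, Cmpk2, Gbp5, Iigp1 and Trim30a, had a mean under 1 FPKM and their differences are not read.

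The order of the members barely differed between the colony libraries. Their log2 levels correlated at 0.98 by Pearson and by Spearman (42 genes). The changes after 6-OHDA and with SP, which come from different libraries, correlated at -0.28 (Pearson) and -0.20 (Spearman) over 42 members, 12 of them under the filter in colonies. Beside these values, 7 of 10 basal markers rose with SP, among them Krt5 from 1888 to 4579 FPKM, and Oxtr fell from 10.2 to 8.07, a call lost with the median ratio and with quantiles. The leukocyte list summed to 34.9 FPKM in control colonies and 136 in SP colonies, almost all of it S100a8 at 30.9 and 125 FPKM, while Ptprc was listed at 0 in both. The endothelial list summed to 1.95 FPKM in control colonies and 2.02 in SP colonies. The fibroblast list summed to 155 and 114 FPKM, most of it Pdpn at 115 and 101 FPKM. Of its 6 genes that passed the filter 4 fell, among them Col1a2 from 20.6 to 3.94 FPKM, while none rose. Of 10 luminal markers, 4 fell, among them Cited1 from 37.3 to 13.0 FPKM, and Areg rose from 16.9 to 46.2, though the fall of Elf5 was lost with the median ratio and with quantiles. The part of these lists in the differences of the members was not tested.

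Between the control libraries, 35 of the 40 members that passed the filter were lower in colonies than in sorted cells and 2 were higher. This comparison shares the sorted control library with the 6-OHDA comparison and the control colony library with the SP comparison, so that the comparisons are not independent. Over the 12244 genes compared, 26.6% fell and 55.7% rose, which scaling by the median ratio turned into 39.6% and 40%, and the median of all genes was shifted by 0.45. The median change of the members was -2.20 as deposited and -2.65 relative to that shift. Past 1, 32 members fell and none rose, against 13.2% and 30.7% of all genes. The members that were higher, Ddx58 and Xaf1, lost that call when libraries were scaled by the median ratio or by quantiles, and relative to the shift 37 members were lower by more than 0.3 and none was higher.

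Markers of several cell types moved in the same comparison, in both directions. The endothelial list fell with all 8 genes, from 300.2 to 1.95 FPKM. Of 8 fibroblast markers 6 fell, among them Dcn from 115 to 1.52 FPKM, and Pdgfra rose from 2.62 to 9.95. Of 10 basal markers 7 fell, among them Myh11 from 467 to 11.2 FPKM, and Krt5 rose from 1002 to 1888. Of 10 luminal markers 7 rose, among them Elf5 from 0.63 to 22.5 FPKM, though the rises of Krt8 and Krt18 were lost with the same sum and with the median ratio, and Areg fell from 37.3 to 16.9. The luminal list summed to 1109 FPKM in sorted control cells and 1525 in control colonies, with Krt8 most abundant in both at 559.9 and 698. Of 4 leukocyte markers that passed the filter 3 fell and S100a8 rose from 0 to 30.9 FPKM, which took the sum of the list from 18.6 to 34.9, while 14 of the 20 were listed at 0 in control colonies. The part of these lists in the fall of the members was not tested.

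The levels of the members were ordered differently in culture. Over 42 members, log2 levels in sorted control cells and in control colonies correlated at 0.18 (Pearson) and 0.13 (Spearman), so that the ranking of members in sorted cells was not carried over into colonies. Of the members, 11 were under 1 FPKM in control colonies, where their order is uncertain. Correlations over all genes were not computed for this or the other pairs of libraries, so the values only describe the members.

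Upstream of the members stand the interferons. Of 21 named interferon genes 6 were listed, and none reached 1 FPKM in any library. The highest value was that of Ifnab at 0.43 FPKM in sorted control cells, with 0 in 6-OHDA cells and 0.14 in both colony libraries. Ifnb1, the first type I interferon made by most infected cells, was at 0.11 FPKM in sorted control cells and listed at 0 in the other 3 libraries. Ifng, the type II interferon, was at 0.06 FPKM in 6-OHDA cells and listed at 0 elsewhere. The 6 genes summed to 0.92 FPKM in sorted control cells, 0.06 in 6-OHDA cells, 0.14 in control colonies and 0.28 in SP colonies. Values this low on short genes rest on few fragments, so the differences between libraries are not read.

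The receptors were present in all 4 libraries, and of the 6 only Ifnar2 had the order of levels seen in most members. Ifnar1, a chain of the type I receptor, was at 5.56 FPKM in sorted control cells, 7.49 in 6-OHDA cells, 11.2 in control colonies and 10.3 in SP colonies. Its partner Ifnar2 was at 42.0, 36.0, 29.6 and 23.0 FPKM in the same order. Ifngr1 and Ifngr2 form the type II receptor, and Ifngr1 was at 32.3, 35.1, 41.8 and 36.9 FPKM. Ifngr2 was at 13.0, 17.2, 38.0 and 31.4 FPKM. Ifnlr1 and Il10rb form the type III receptor, which is found mainly on epithelial cells. Ifnlr1 was at 2.99, 3.44, 8.29 and 5.76 FPKM, and Il10rb at 7.57, 8.47, 14.8 and 12.0. Of the 6 receptor genes, 2 rose and none fell after 6-OHDA, 2 fell and none rose with SP, and 5 were higher and 1 lower in colonies than in sorted cells. Over all genes, 15.8% rose after 6-OHDA, 19.8% fell with SP, and 55.7% were higher and 26.6% lower in colonies. The rise of Ifnar1 after 6-OHDA was lost with quantiles, the fall of Ifnar2 with SP was lost with the median ratio, and the higher value of Ifngr1 in colonies was lost under every scaling tried.

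The kinases that carry the signal and Stat3 changed little in sorted cells. Jak1 was at 146 FPKM in sorted control cells, 133 in 6-OHDA cells, 51.9 in control colonies and 46.8 in SP colonies, and Jak2 at 56.9, 48.5, 16.2 and 13.6. Tyk2, the kinase bound to IFNAR1, was at 1.96, 1.90, 8.2 and 8.28 FPKM. Stat3, which also answers to cytokines of the interleukin-6 family, was at 306, 265, 153 and 130 FPKM. None of these genes passed 0.3 after 6-OHDA or with SP, while in colonies Jak1, Jak2 and Stat3 were lower and Tyk2 was higher than in sorted cells.

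Of 4 inhibitors of the pathway, 2 fell after 6-OHDA and 3 were lower in colonies than in sorted cells, against 8.35% and 26.6% of all genes. Socs1, which blocks Janus kinases and is induced by interferon, was at 20.1 FPKM in sorted control cells, 13.0 in 6-OHDA cells, 0.87 in control colonies and 1.25 in SP colonies. Socs3, which is induced mainly through STAT3, was at 353, 276, 57.1 and 57.8 FPKM. Both fell after 6-OHDA, by 0.59 and by 0.35, and their changes from sorted cells to colonies were -3.49 and -2.61. The phosphatase gene Ptpn2 was at 70.5, 86.5, 46.2 and 46.0 FPKM. Pias1, which encodes a SUMO ligase that restrains the pathway, was at 12.8, 11.0, 12.8 and 11.1 FPKM. Neither passed 0.3 after 6-OHDA or with SP as deposited, and Ptpn2 passed it after 6-OHDA without the salivary genes. In colonies against sorted cells Ptpn2 changed by -0.60, and Pias1 by -0.01 as deposited and -0.48 with the median ratio.

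Of 14 genes that sense nucleic acid or lead from sensing to interferon production, 12 passed the filter after 6-OHDA, 4 fell and none rose, against 8.35% and 15.8% of all genes. They were Tlr3, Myd88, Mb21d1 and Irf5. Tlr3, the endosomal receptor for double-stranded RNA, had the largest fall and was at 7.39 FPKM in sorted control cells, 2.43 in 6-OHDA cells, 15.2 in control colonies and 10.7 in SP colonies. Myd88, the adaptor of most Toll-like receptors, was at 62.7, 50.1, 28.5 and 22.9 FPKM, and its fall after 6-OHDA was lost without the salivary genes. Mb21d1, the gene of the DNA sensor cGAS, was at 2.56, 1.57, 1.25 and 1.87 FPKM, and Irf5 at 4.64, 3.10, 1.89 and 1.98. The other sensing genes gave other patterns. Irf3, the factor that starts interferon production, was at 11.0, 13.3, 29.5 and 27.6 FPKM. Tmem173, which encodes STING, was at 35.1, 28.9, 22.2 and 23.4 FPKM, and Tbk1, the kinase that activates IRF3, at 19.1, 21.5, 27.6 and 26.2. With the median ratio Tmem173 also fell after 6-OHDA, with a change of -0.33. Mavs, the adaptor of the cytosolic RNA sensors, was at 4.10, 4.19, 14.1 and 11.6 FPKM. Ikbke was at 3.67, 3.66, 12.8 and 10.4 FPKM, Traf3 at 11.5, 10.8, 13.0 and 11.4, Ticam1 at 3.18, 2.91, 4.0 and 3.12, and Tlr4 at 2.44, 2.55, 4.97 and 4.23. Tlr7 and Tlr9 stayed under 1 FPKM in all 4 libraries. With SP, Tlr3 and Myd88 fell and Mb21d1 rose, and that fall of Myd88 was lost with the median ratio and with quantiles. In colonies, 6 of 12 were higher and 4 lower than in sorted cells as deposited, against 55.7% and 26.6% of all genes. The higher value of Tbk1 was lost with the median ratio and with quantiles, and that of Tlr4 with quantiles. With the median ratio Traf3 was also lower in colonies, with a change of -0.304.

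Among the members themselves, the sensors of foreign RNA and DNA all fell after 6-OHDA, against 8.35% of all genes. Ifih1, which encodes MDA5, the sensor of long double-stranded RNA, was at 12.6 FPKM in sorted control cells, 4.60 in 6-OHDA cells, 4.05 in control colonies and 2.91 in SP colonies. Dhx58, which encodes LGP2, a helper of the RNA sensors, was at 11.8, 2.76, 1.94 and 1.59 FPKM. Its change after 6-OHDA, -1.77, was the largest of the group. Zbp1, a sensor of Z-form nucleic acid that can start necroptosis, was at 19.4, 8.70, 7.12 and 6.42 FPKM. Ddx58, which encodes RIG-I, behaved differently in culture, at 14.4 FPKM in sorted control cells, 10.7 in 6-OHDA cells, 21.04 in control colonies and 14.4 in SP colonies. It fell by 0.40 after 6-OHDA and by 0.52 with SP, and its change from sorted cells to colonies was 0.52 as deposited and 0.04 with scaling by the median ratio.

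The transcription factors of the response had the smallest median fall after 6-OHDA of all roles among the members. Stat2 was at 19.2 FPKM in sorted control cells, 15.4 in 6-OHDA cells, 3.06 in control colonies and 2.79 in SP colonies, a change after 6-OHDA of -0.30 that did not pass the threshold. Its partner Irf9 was at 37.8, 30.2, 13.8 and 11.7 FPKM, and its change of -0.31 was lost without the salivary genes and with a pseudocount of 5. Irf1, a factor induced chiefly by interferon gamma, was the most abundant of the 4, at 136, 102, 22.8 and 21.6 FPKM. Irf7, which amplifies production of type I interferon, was at 38.8, 19.4, 6.85 and 4.71 FPKM and had the largest change of the group after 6-OHDA, -0.96. The group's median change was -0.36 after 6-OHDA and -2.33 from sorted cells to colonies, where all 4 were lower, against 26.6% of all genes. With SP, only Irf7 fell, by 0.46, a call lost with a pseudocount of 5.

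The ISG15 system attaches a ubiquitin-like protein to other proteins and removes it again. Isg15 itself was at 159 FPKM in sorted control cells, 51.7 in 6-OHDA cells, 10.3 in control colonies and 10.02 in SP colonies. Usp18, the protease that removes ISG15 and also restrains the type I receptor, was at 37.5, 8.56, 1.13 and 1.22 FPKM. Herc6, the main mouse ISG15 ligase, was at 6.98, 2.50, 1.34 and 0.65 FPKM. After 6-OHDA the changes were -1.60, -2.01 and -1.19, and from sorted cells to colonies they were -3.82, -4.17 and -1.77. Isg15 and Usp18 differed by less than 0.1 between the colony libraries.

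The IFIT proteins bind foreign RNA and keep it from being translated. Ifit1 was at 60.3 FPKM in sorted control cells, 10.2 in 6-OHDA cells, 0.88 in control colonies and 1.10 in SP colonies. Ifit2 was at 74.4, 11.2, 2.04 and 2.58 FPKM, and Ifit3 at 95.6, 15.0, 0.50 and 0.81. Ifit3b was at 27.7, 3.64, 0.28 and 0.40 FPKM. The 4 genes fell together after 6-OHDA, with changes between -2.63 and -2.45, the narrowest range of any group with more than 3 members. In colonies their sum was 3.70 FPKM without and 4.89 with SP, against 258 in sorted control cells. Only Ifit2 passed the filter with SP, and its change of 0.24 was within the threshold as deposited.

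Oligoadenylate synthetases make a messenger that activates RNase L, which then degrades RNA. Oas1a was at 10.1 FPKM in sorted control cells, 5.11 in 6-OHDA cells, 2.10 in control colonies and 3.66 in SP colonies, and it was the only member that rose with SP, with a change of 0.59 that a pseudocount of 5 brought within 0.3. Oas2 was at 1.52, 1.04, 0.11 and 0.08 FPKM, and its change of -0.30 after 6-OHDA was lost without the salivary genes and with a pseudocount of 5. Oas3 was under 1 FPKM in every library, at 0.38, 0.07, 0.03 and 0.12, and passed the filter in no comparison. The OAS-like genes were more abundant in sorted cells. Oasl1 was at 23.6, 3.68, 0.59 and 0.70 FPKM, and Oasl2 at 23.7, 9.77, 4.84 and 2.87. From nearly equal levels in sorted control cells, Oasl1 became 6.41-fold lower after 6-OHDA and Oasl2 2.43-fold lower, and Oasl2 fell by 0.59 with SP.

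Viperin, encoded by Rsad2, makes a nucleotide that stops viral RNA synthesis, and Cmpk2 encodes a nucleotide kinase that supplies it. Rsad2 was at 169 FPKM in sorted control cells, the highest of all members there, and at 19.5 in 6-OHDA cells, 0.12 in control colonies and 0.34 in SP colonies. Cmpk2 was at 73.2, 9.64, 0.93 and 0.56 FPKM. Their changes after 6-OHDA, -3.05 and -2.80, were the largest and the next largest falls among the 11749 genes compared. In plain FPKM, Rsad2 was 8.67-fold and Cmpk2 7.59-fold lower. From sorted cells to colonies they changed by -7.25 and -5.26, and neither passed the filter with SP.

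The guanylate-binding proteins and immunity-related GTPases, which are induced strongly by interferon gamma, gather on the membranes around intracellular pathogens. Gbp2 was at 144 FPKM in sorted control cells, 43.7 in 6-OHDA cells, 8.91 in control colonies and 6.28 in SP colonies. Gbp3 was at 28.3, 11.7, 1.34 and 0.98 FPKM and Gbp7 at 12.7, 4.86, 1.43 and 1.23. Gbp5, which also promotes inflammasome assembly, was at 27.8, 9.05, 0.02 and 0.04 FPKM. Among the immunity-related GTPases, Igtp was at 69.9, 26.3, 2.28 and 2.19 FPKM, and Iigp1 at 109, 44.9, 0.59 and 0.12. Irgm1, which keeps the other GTPases of its family inactive on the cell's own membranes, was at 78.0, 31.1, 15.9 and 12.5 FPKM. All 7 fell by more than 1 after 6-OHDA, against 0.902% of all genes, with changes between -1.69 and -1.21. In colonies they spread apart, from Irgm1 at 4.90-fold lower than in sorted control cells to Iigp1 at 185-fold lower and Gbp5, whose 0.02 FPKM is too low for a fold to be read.

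PARP9 and DTX3L act as a pair that modifies histones and proteins at damaged DNA and aids interferon signalling, and PARP14 is a related ADP-ribosyltransferase. Parp9 was at 19.8 FPKM in sorted control cells, 14.4 in 6-OHDA cells, 22.4 in control colonies and 21.9 in SP colonies. Dtx3l was at 12.7, 6.79, 8.85 and 8.55 FPKM. Both fell after 6-OHDA, by 0.44 and by 0.81. Between sorted cells and colonies Dtx3l changed by -0.47 as deposited and -0.93 with the median ratio. Parp14 was at 36.4, 16.0, 7.29 and 6.41 FPKM, with changes of -1.14 after 6-OHDA and -2.17 from sorted cells to colonies. The change of Parp9 from sorted cells to colonies was 0.17 as deposited and -0.31 with scaling by the median ratio, so that its direction depends on the scaling. None of the 3 changed with SP.

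The other effectors had the widest range of log2 changes of any role from sorted cells to colonies as deposited. This did not hold with quantiles, nor after 6-OHDA or with SP. Bst2, which encodes tetherin, a protein that holds budding viruses at the cell surface, was at 52.8 FPKM in sorted control cells, 38.1 in 6-OHDA cells, 15.8 in control colonies and 15.0 in SP colonies. Eif2ak2, which encodes the RNA-activated kinase PKR that halts translation, was at 19.5, 13.1, 13.2 and 14.8 FPKM. Daxx, a histone chaperone of nuclear bodies, was at 35.3, 16.7, 13.4 and 12.1 FPKM. These 3 fell after 6-OHDA by 0.46, 0.54 and 1.03 on the log2 scale. Trim30a, of the tripartite motif family, was at 11.2, 4.87, 0.20 and 0.12 FPKM, and Samd9l, an inhibitor of translation, was at 15.6, 9.56, 10.9 and 12.8. The former was 56.0-fold lower in control colonies than in sorted control cells, a rough fold since it rests on 0.20 FPKM, and the latter 1.43-fold. Rtp4 was at 23.5, 13.9, 6.60 and 3.91 FPKM and had the largest fall with SP of the members that passed the filter, with a change of -0.63. Ifi44 was at 7.61, 4.50, 1.80 and 1.15 FPKM.

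Xaf1, Ifi35 and Lgals3bp were not lower in colonies than in sorted cells by more than 0.3 as deposited. Xaf1, whose product opposes an inhibitor of apoptosis, was at 3.97 FPKM in sorted control cells, 3.64 in 6-OHDA cells, 6.78 in control colonies and 6.69 in SP colonies, with a change from sorted cells to colonies of 0.65 as deposited and 0.22 with scaling by the median ratio. Ifi35 was at 25.4, 17.8, 24.6 and 22.6 FPKM. Lgals3bp, a secreted glycoprotein that binds galectins, was at 22.7, 18.2, 22.6 and 14.9 FPKM. It fell by 0.57 with SP, and its change of -0.31 after 6-OHDA was lost without the salivary genes and with a pseudocount of 5. Ifi35 and Lgals3bp were within 0.3 between sorted cells and colonies as deposited and were lower in colonies with scaling by the median ratio.

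A wider list of interferon-induced genes, taken from general knowledge with earlier results of these data known, holds no members. Of 68 named genes 65 were listed. After 6-OHDA, 43 of 55 that passed the filter fell and 1 rose, with a median of -0.74, against 8.35% and 15.8% of all genes. With SP, 4 of 43 fell and 6 rose, with a median of -0.11, against 19.8% and 11.7% of all genes, and with the median ratio 2 fell and 7 rose, against 14.8% and 14.8%. From sorted cells to colonies 40 of 57 fell and 8 rose, with a median of -0.85, against 26.6% and 55.7% of all genes, and with the median ratio 49 fell and 3 rose, against 39.6% and 40%. These counts too are a description.

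The 5 largest falls of this list after 6-OHDA were all of GTPases or of a Schlafen gene. Tgtp2 went from 46.4 FPKM in sorted control cells to 12.7 in 6-OHDA cells, and Tgtp1 from 34.4 to 11.1. Gbp4 went from 25.5 to 7.43 FPKM and Gbp6 from 43.7 to 14.0. Slfn2, which restrains the growth of immune cells, went from 21.5 to 6.83 FPKM. At the other end of the list, only Ifi27l2a rose, from 37.0 to 52.7 FPKM. Pnpt1 was at 13.6 and 16.0 FPKM, Ifitm2 at 430 and 460, Ifi27 at 94.7 and 98.5, and Ifitm3 at 1578 and 1603. Ifitm2 and Ifitm3, whose products block viral entry, were thus among the most abundant interferon-induced genes and differed by less than 0.1.

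With SP the 5 lowest changes of this list were small, and that of Tdrd7 was within 0.3 as deposited. Ifi30 went from 47.2 FPKM in control colonies to 35.7 in SP colonies, and Parp10 from 10.2 to 7.68. Uba7 went from 4.88 to 3.72 FPKM and Mov10 from 4.81 to 3.70, while Tdrd7 was at 8.01 and 6.41. The falls of Parp10, Uba7 and Mov10 were lost with quantiles, and those of Uba7 and Mov10 also with the median ratio. The 5 largest rises were those of Slfn9 from 3.45 to 6.63 FPKM, Isg20 from 9.72 to 13.6, Mlkl from 10.04 to 13.9, Ifi27l2a from 3.01 to 4.15 and Ifitm3 from 759 to 952. The rise of Ifitm3 was lost with quantiles. None of these changes reached 1 on the log2 scale.

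From sorted cells to colonies the 5 largest falls were again mostly of GTPases. Tgtp2 went from 46.4 FPKM in sorted control cells to 0.14 in control colonies, Gbp6 from 43.7 to 0.42, Tgtp1 from 34.4 to 0.46 and Gbp4 from 25.5 to 0.03. Slfn5 went from 38.4 to 0.13 FPKM. The 5 largest rises were those of Trim12c from 2.77 to 9.72 FPKM, Oas1c from 0.57 to 2.24, Ly6e from 250.1 to 437, Mov10 from 2.54 to 4.81 and Shisa5 from 64.9 to 95.7. Of these, the rises of Ly6e and Shisa5 were lost with the median ratio and that of Mov10 with quantiles.

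Many members lie next to each other in the genome, with coordinates from RefSeq on GRCm38.p6, the assembly that the mm10 build holds. The 4 IFIT genes lie on 1 strand of chromosome 19, from Ifit2 at chr19:34550550-34576534 through Ifit3 and Ifit3b to Ifit1 at chr19:34640889-34650009. The 4 GBP members lie on chromosome 3 between Gbp5 at chr3:142496934-142522344 and Gbp2 at chr3:142620663-142638008. Rsad2, at chr12:26442743-26456452, and Cmpk2, at chr12:26469117-26479837, are neighbours on opposite strands with 12664 bases between them. Parp9 and Dtx3l on chromosome 16 are also on opposite strands and share 558 bases at their starts. Neighbours did not always change alike. Oasl2 and Oasl1 lie 10897 bases apart on chromosome 5, and Parp14 lies 54996 bases from Dtx3l, with the differing changes given above.

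Shared sequence and overlap limit some values. Between the coding sequences of Ifit3 and Ifit3b, 1198 of 1209 bases were identical (99.1%), so that fragments of these genes could have been divided between them in the counting, and both values are uncertain. The coding sequences of Oas1a and its relative Oas1g were 96.7% identical, and those of Tgtp1 and Tgtp2 99.7%. The other pairs that were compared were less alike, the closest being Gbp3 and Gbp7 at 76.3%. Further pairs within families of the wider list were not compared. In addition, 7 of the 42 members overlap another gene of the tables, namely Stat2, Ifit1, Ifit3b, Parp9, Dtx3l, Eif2ak2 and Rtp4. Among them, Ifit1 and Ifit3b lie with their whole spans, 9121 and 5874 bases, within that of Ifit1bl1 on the opposite strand, and the others overlap only in part. Whether the counting used strand was not given in the sources used here, so fragments from the shared stretches cannot be told apart.

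The promoters of the members were searched for the letters that the factors of the response are known to bind. The windows were those of RefSeq on GRCm38.p6, from 250 bases before to 50 bases after a transcription start site, and 34 of the 42 members had at least 1 window. The ISRE core was searched as GAAANNGAAA and the GAS as TTCNNNGAA, on both strands. An ISRE was found in 19 of 34 members (55.9%), against 523 of 13833 genes of the tables (3.78%). A GAS was found in 9 of 34 members (26.5%), against 1185 of 13833 genes (8.57%). Of the wider list, 24 of 51 genes with a window held an ISRE (47.1%) and 8 a GAS (15.7%). Counted per window, 3.14% of the 17390 windows of all genes of the tables held an ISRE and 7.19% a GAS. A match is a description of letters and does not show that a factor binds there.

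Members with an ISRE in the window and those without overlapped widely in their changes. After 6-OHDA the median change was -1.28 for the 19 with an ISRE, which ranged from -3.05 to -0.30, and -0.81 for the 15 without, which ranged from -2.80 to -0.10. From sorted cells to colonies the medians were -3.34 and -1.62, and with SP they were -0.04 and -0.14, with members under the filter counted in each. For the GAS the medians after 6-OHDA were -0.87 for the 9 members with it and -1.19 for the 25 without, with SP they were -0.04 and -0.14, and in culture -2.49 and -2.22. No GAS was found in the windows of Rsad2, Isg15, Ifit1 or Ifit3. Ifit2, Oasl1 and Cmpk2, which fell about as deeply as the ISRE-bearing IFIT genes, held no ISRE in these windows, which says only that these letters are not in this stretch.

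**Figure D3:**
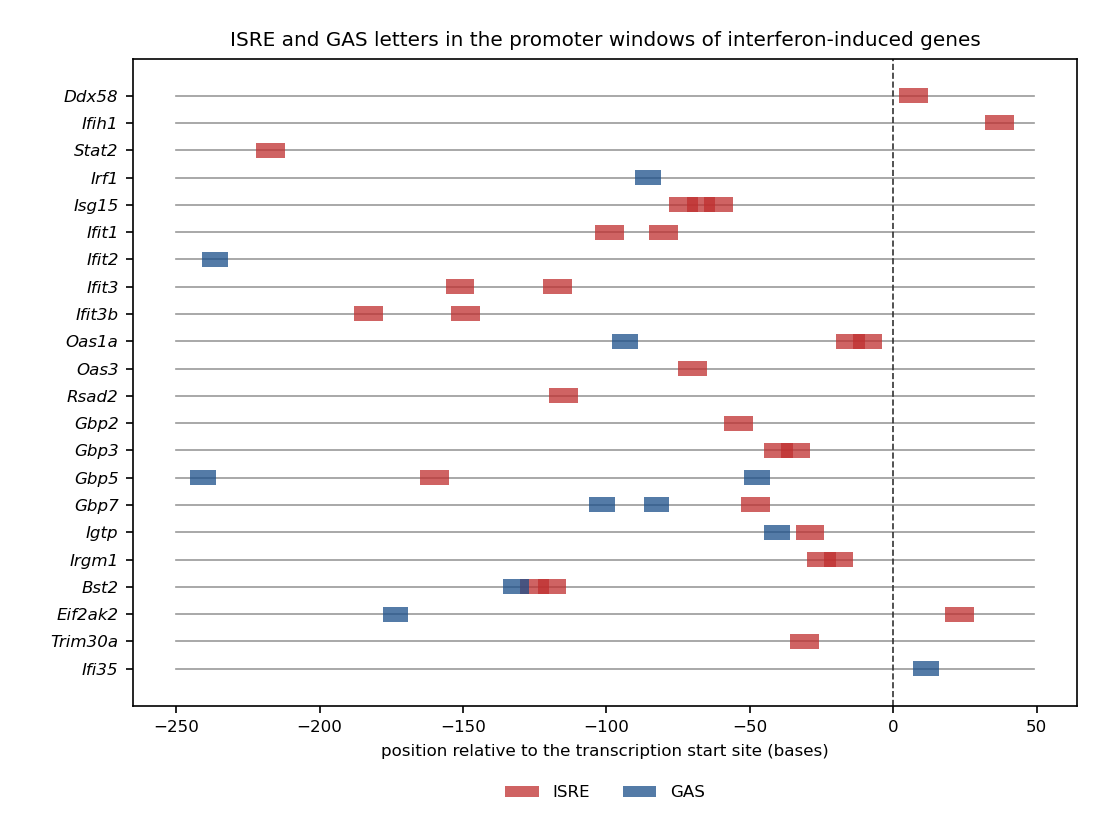
Positions of ISRE letters (red) and GAS letters (blue) in the promoter windows of the 22 members that held at least 1 of them, with the first window holding a match drawn for each gene and the transcription start site at 0. Most matches lie within the 250 bases before the start site, and those of Isg15, Oas1a, Gbp3, Irgm1 and Bst2 overlap one another.

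Stretches that hold the ISRE are printed for 5 of the members that fell by more than 1 both after 6-OHDA and in culture, chosen for their falls, which differed in size. Each is 60 bases long, ends before the transcription start site of its window, is written 5′ to 3′ on the strand of its gene, and has the ISRE letters in capitals. The window of Isg15, on the minus strand at chr4:156200856-156200915, held 3 overlapping ISRE matches.
Isg15: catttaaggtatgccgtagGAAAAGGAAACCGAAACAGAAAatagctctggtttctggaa
The window of Ifit1, on the plus strand at chr19:34640769-34640828, held 2 matches in the reverse orientation.
Ifit1: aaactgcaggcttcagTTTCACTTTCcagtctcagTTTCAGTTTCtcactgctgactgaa
The window of Ifit3, on the plus strand at chr19:34583365-34583424, held 2 matches, and the same 60 bases occur at Ifit3b, at chr19:34607761-34607820. In both genes this stretch lies within the span of the gene, before a start site inside it.
Ifit3: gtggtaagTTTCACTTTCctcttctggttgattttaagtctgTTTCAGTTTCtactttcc
The window of Rsad2, on the minus strand at chr12:26456538-26456597, held 1 match.
Rsad2: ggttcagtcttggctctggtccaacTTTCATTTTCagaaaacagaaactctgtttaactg
The window of Gbp2, on the plus strand at chr3:142620579-142620638, held 1 match.
Gbp2: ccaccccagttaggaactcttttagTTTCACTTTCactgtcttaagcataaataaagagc
For contrast, the window of Bst2, a member that fell by only 0.46 after 6-OHDA, is on the minus strand at chr8:71537565-71537624 and held 2 overlapping matches, 1 of which also shares bases with a GAS match.
Bst2: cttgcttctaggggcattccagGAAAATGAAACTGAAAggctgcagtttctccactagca
Thus the window of a member that fell little after 6-OHDA held as many ISRE matches as that of Ifit1, and the number of matches was not read as a measure of response.

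All of these values rest on 1 library per group, so the spread between mice or cultures was not measured. The 6-OHDA library alone held abundant salivary gland transcripts, the sorted libraries held endothelial transcripts that were near 0 in the colonies, and bulk values do not tell which cells carried the members. Treatment cannot be told apart from mouse, sort or library in the 6-OHDA comparison, nor culture from a changed mix of cells in the comparison of colonies with sorted cells. What lowered the members was not tested.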

How the data were processed

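FPKM values of each gene, as deposited by the authors, were used for 4 libraries of mouse mammary basal cells, with 17630 NCBI Gene numbers per table. The submitters' processing notes name Bowtie2, RSEM 1.3.1, DESeq2 1.4.5 and the build mm10; their roles, the annotation and the handling of strand were not given in the sources used here. Gene numbers were matched to RefSeq symbols (GRCm38.p6), 17512 matched and 118 did not. Members and lists were chosen with earlier results of these data known.

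Changes were differences of log2(FPKM + 1), kept where both libraries averaged 1 FPKM or more, with 0.3 and 1 as thresholds and no test, since each group had 1 library. All members were named. Of the pathway lists, receptors, mediators and inhibitors were named, except an item that is not reported here, other genes only above 1 FPKM, and the wider list by its 5 largest changes each way. Alternatives were other pseudocounts, filters and scalings. The salivary genes count in the library sums as deposited.

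Fragment counts were not used here. Steps between low values of single-transcript genes gave a rough estimate of 16.4 to 17.9 fragments per FPKM and kilobase, assuming fragments of 250 bases. Values under about 0.1 FPKM thus rest on few fragments, as do somewhat higher values of short genes such as Ifnb1. Coding sequences came from GENCODE M21 and were aligned with Biopython 1.88, in place of the planned protein comparison. The code was tested on simulated data. Scripts ran under Python 3.11.15. Tables were handled with pandas 2.3.3 and numpy 2.4.6, correlations came from scipy 1.17.1, and figures were drawn with matplotlib 3.10.9.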

Additional observations from a re-analysis of the deposited data

How the results depend on the processing

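Pseudocounts of 0.1 and 5, no filter or a mean of at least 5 FPKM, rescaling to the same sum with or without the salivary genes, scaling by the median ratio, quantile normalization and a threshold of 1 were tried one at a time. No count or median of the members changed direction. Single genes did, as Parp9 in culture with the median ratio, and members below 0 with SP went from 30 to 25 of 42 with the median ratio or quantiles. After 6-OHDA the members' counts and median stayed within 1.5 times their values except that 24 members fell past a threshold of 1. With SP, the members that rose numbered 2 with a pseudocount of 0.1 or with quantiles and 0 with a pseudocount of 5, a mean of at least 5 FPKM or a threshold of 1. Those that fell with SP numbered 5 with a pseudocount of 5 and 0 past a threshold of 1. The median change with SP was -0.0693 with the median ratio, -0.0657 with quantiles and -0.0795 with a pseudocount of 5. From sorted cells to colonies, 0 members rose with the median ratio, with quantiles or past a threshold of 1. Where the cause was not the threshold itself, the cause was not tested. Single members kept their side of 0.3 in 241 values after 6-OHDA, lost it in 7 and gained it in 4. With SP these numbers were 230, 13 and 9, and in culture 244, 5 and 3. With 1 library per group and no counts, low values such as those of the IFIT genes in colonies have no error estimate.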
